A study of Mus musculus with 4 samples.

Results

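The PGC-1 coactivators and the transcription factors that act with them in mitochondrial biogenesis were examined in 4T1 cells sorted by mitochondrial membrane potential (MMP). The set was given as 8 named genes, the coactivators *Ppargc1a*, *Ppargc1b* and *Pprc1* and the factors *Nrf1*, *Gabpa*, *Gabpb1*, *Esrra* and *Yy1*, of which 7 were matched to one of the 20197 genes measured. 4T1 is a mouse mammary carcinoma line, wild type by its label and grown in DMEM with serum, that serves as a model of metastatic breast cancer. All cells were stained with MitoSpy Red at 20 nM, a dye that accumulates in mitochondria according to MMP, and the highest 5% were sorted as high MMP cells, the lowest 5% as low MMP cells. Each group had 2 samples, and stranded mRNA libraries were made from 100000 cells of each. The samples came from 1 cell line and, by the study's description, from independent experiments, and the labels do not say which high and low MMP samples share an experiment.

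PGC-1 coactivators have no DNA-binding domain that directs them to a promoter by itself. They are recruited by transcription factors and raise transcription of nuclear genes for mitochondrial proteins. NRF-1 (gene *Nrf1*), GABP, also called NRF-2, and the estrogen-related receptor ERR-alpha (*Esrra*) bind promoters of respiratory chain subunits and of the factors that copy and transcribe mitochondrial DNA, and YY1 acts with PGC-1 on a related set of promoters. These genes are not to be confused with *Nfe2l1* and *Nfe2l2*, whose proteins are also called NRF1 and NRF2.

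No gene of the set passed the test between high and low MMP cells. In limma on log2(value + 1), 0 of the 7 genes had an adjusted p under 0.05 (Benjamini-Hochberg over all genes), where the share of all genes called was 0%. Their adjusted p-values lay between 0.664 for *Yy1* and 0.964 for *Gabpa*. None had an unadjusted p under 0.05 either, against 9.96% of all genes, which include genes with few reads. In limma on only the 12902 genes that averaged at least 10 normalized reads, 1059 genes and 0 of the 7 were under 0.05. On the recovered reads, the count among the 7 was also 0 in edgeR without a block (0% of all genes called), in DESeq2 (0.584%) and in edgeR with a replicate block (0.525%), and no unadjusted p of the 7 was under 0.05 in these tests. Fitted differences, high minus low MMP, ranged in size from 0.04 to 0.25 on the log2 scale, with 3 genes higher and 4 lower. The 95% interval of the difference contained 0 for all 7. It lay within a 2-fold change in either direction for 7 and within a 1.5-fold change for 6, all but *Ppargc1b*, so larger changes are outside these intervals.

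**Figure D1:**
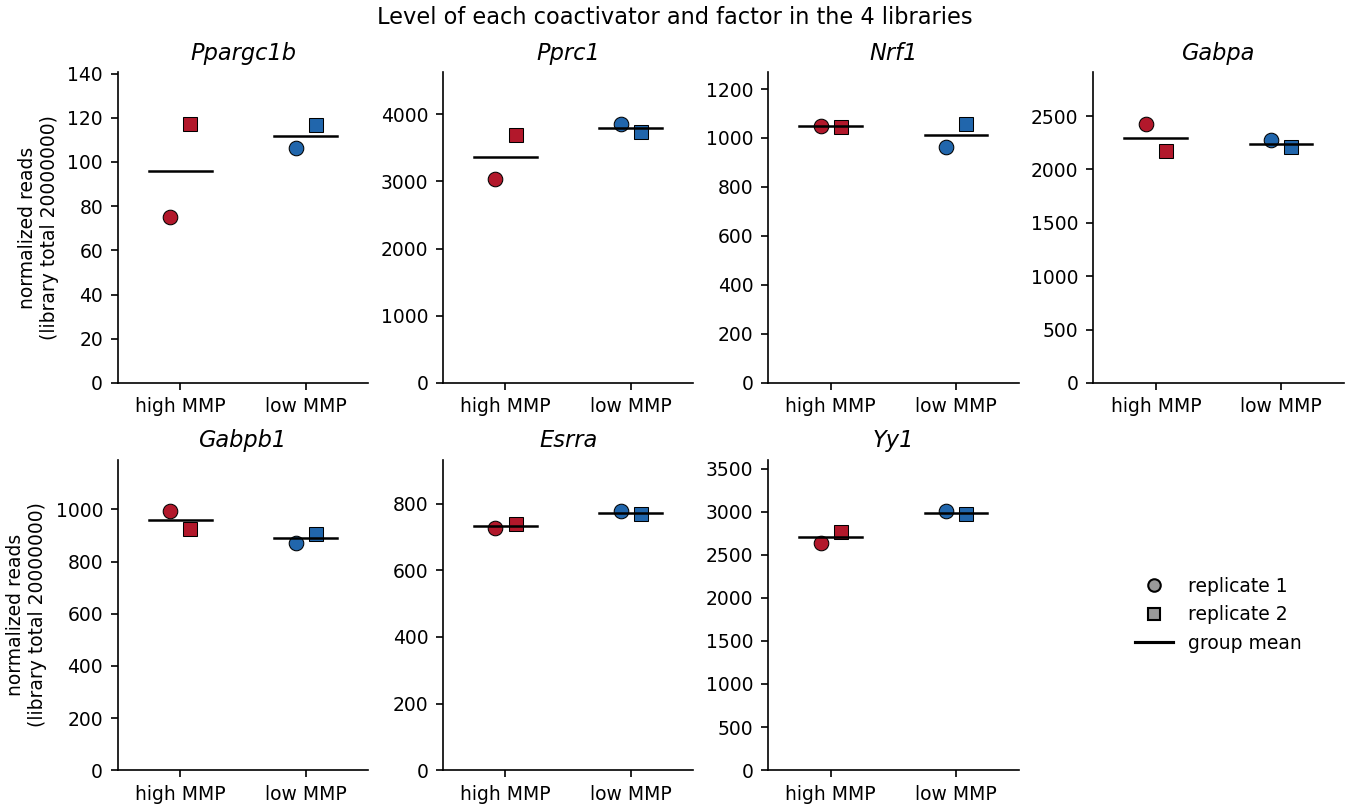
Normalized reads (y axis, linear from 0, each library scaled to 20000000) of the 7 genes in high MMP (red) and low MMP (blue) cells, with circles for replicate 1, squares for replicate 2 and a bar for the group mean. The circle of high MMP replicate 1 lies apart for *Ppargc1b* and *Pprc1*, while the 4 values of *Nrf1* and of *Gabpa* overlap between the groups.

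*Ppargc1a* encodes PGC-1alpha, the founding member of the family, which is inducible and abundant in oxidative tissues. The table lists only genes above 0 in at least 2 of the 4 libraries and no row matched *Ppargc1a* (ENSMUSG00000029167, chromosome 5, 51454250 to 51567726 on GRCm38), so its level and its difference were not analysed here.

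*Ppargc1b* (ENSMUSG00000033871, chromosome 18, 61298136 to 61400431) encodes PGC-1beta, which supports basal mitochondrial content and is a partner of ERR-alpha. It had 75.0 and 117 normalized reads in the high MMP samples 1 and 2 and 106 and 117 in the low MMP samples 1 and 2. High MMP 1 was the lowest of the 4, and the other 3 lay close together. These values rest on 99, 140, 122 and 132 reads in the same order, so that counting error alone is 10.1% of the value in high MMP 1 and 8.45% in high MMP 2. Mean levels (± SD, n = 2) were 96.1 ± 29.8 for high and 112 ± 7.42 for low MMP. On the log2 scale the difference was -0.25 (SE 0.26, limma adjusted p 0.855). The gap between the high MMP samples, -0.64 for 1 minus 2, was larger than the difference between the groups. Without high MMP 1 the difference had the opposite sign, 0.07.

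*Pprc1* (ENSMUSG00000055491, chromosome 19, 46044886 to 46072915) encodes PRC, the PGC-1-related coactivator, which is known as a serum-induced member of the family that works with NRF-1. Its values were 3038 and 3690 in the high MMP samples 1 and 2 and 3853 and 3731 in the low MMP samples. Both high MMP values lay below both low MMP values, but high MMP 2 was only slightly below low MMP 2. The group means (± SD, n = 2) were 3364 ± 462 for high and 3792 ± 86.1 for low MMP. The difference was -0.18 (SE 0.12, limma adjusted p 0.750), smaller than the gap of -0.28 between the high MMP samples, and it was -0.04 without high MMP 1. Its exons share 177 bases with exons of *Ldb1* on the opposite strand, which is 2.82% of its exon length.

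*Nrf1* (ENSMUSG00000058440, chromosome 6, 30047988 to 30153458) encodes NRF-1, which binds a GC-rich palindrome in promoters of respiratory genes. It had 1049 and 1047 normalized reads in the high MMP samples and 965 and 1057 in the low MMP samples. Low MMP 1 was the lowest value, and low MMP 2 the highest. Mean levels (± SD, n = 2) were 1048 ± 1.82 for high and 1011 ± 65.0 for low MMP, and the difference of 0.05 (SE 0.09, limma adjusted p 0.925) was smaller than the gap of -0.13 between the low MMP samples.

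GABP is built of an ETS-type DNA-binding subunit and a beta subunit that carries the activation domain. The DNA-binding subunit *Gabpa* (ENSMUSG00000008976, chromosome 16, 84834925 to 84863779) had 2425 and 2172 in the high MMP samples and 2274 and 2206 in the low MMP samples. The high MMP samples held both the highest and the lowest value, so the groups overlapped. The group means (± SD, n = 2) were 2299 ± 179 for high and 2240 ± 48.3 for low MMP, a difference of 0.04 (SE 0.09, limma adjusted p 0.964). *Gabpa* shares 397 bases of exon, 6.98% of its exon length, with *Atp5j*, an ATP synthase gene on the opposite strand, and whether reads were counted by strand is not given in the sources used here.

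The beta subunit *Gabpb1* (ENSMUSG00000027361, chromosome 2, 126627442 to 126676337) was the only gene of the set with both high MMP values above both low MMP values. It had 993 and 926 in high and 870 and 907 in low MMP cells. High MMP 2 and low MMP 2 were close to each other. Mean levels (± SD, n = 2) were 959 ± 46.8 for high and 888 ± 25.8 for low MMP, a difference of 0.11 (SE 0.08, limma adjusted p 0.769). The ratio of *Gabpa* to *Gabpb1* reads per kb of exon was 3.33 and 3.20 in the high MMP samples and 3.56 and 3.32 in the low MMP samples, so the groups overlapped in this ratio. It leaves out *Gabpb2*, the other GABP beta gene, so it is not the ratio of alpha to all beta transcripts. *Gabpb2* had 163 and 187 reads per kb in the high and 178 and 164 in the low MMP samples.

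*Esrra* (ENSMUSG00000024955, chromosome 19, 6910977 to 6921813) encodes ERR-alpha, an orphan nuclear receptor that depends on PGC-1 coactivators rather than on a known hormone. It had 725 and 737 normalized reads in the high MMP samples and 777 and 769 in the low MMP samples. Replicates lay close together in both groups, and the groups did not overlap. The group means (± SD, n = 2) were 731 ± 8.56 for high and 773 ± 5.26 for low MMP. The difference of -0.08 (SE 0.08, limma adjusted p 0.826) corresponds to 0.946-fold, with a 95% interval of 0.821 to 1.09-fold. In counts it rests on 957 and 881 reads in the high and 891 and 869 reads in the low MMP libraries, where counting error is 3.23% to 3.39% of the value.

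*Yy1* (ENSMUSG00000021264, chromosome 12, 108792973 to 108820148) encodes a zinc finger protein that activates or represses many genes and that links mTOR to PGC-1-dependent mitochondrial transcription. It had 2640 and 2765 normalized reads in the high MMP samples and 3004 and 2975 in the low MMP samples. Both high MMP values were lower, and the groups did not overlap. Mean levels (± SD, n = 2) were 2702 ± 88.4 for high and 2990 ± 20.3 for low MMP, a difference of -0.15 (SE 0.08). This was the smallest p of the set, at 0.125 unadjusted and 0.664 adjusted in limma, and the interval was 0.782 to 1.04-fold. The difference was -0.11 without high MMP 1 and -0.18 without high MMP 2.

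Of the 7 genes, 4 did not overlap between the groups, 1 higher and 3 lower in high MMP cells. Over the 12902 genes that averaged 10 normalized reads or more, called well measured here, 38.0% did not overlap, 14.3% above and 23.7% below. With 7 genes, 4 is not read as more than this background. The median difference was -0.08 for the 7 genes and -0.03 for well measured genes, whose median size irrespective of sign was 0.13.

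**Figure D2:**
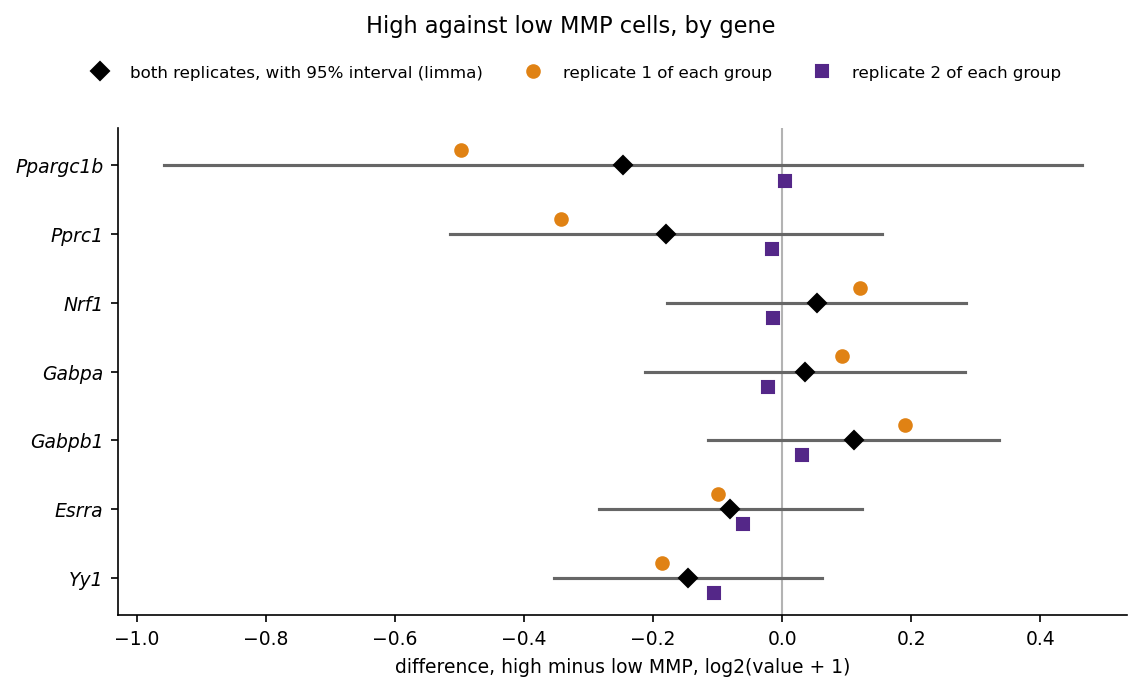
Difference between high and low MMP cells on the log2(value + 1) scale (x axis) for each gene (y axis), as the limma estimate with its 95% interval (black), from the samples numbered 1 (orange) and from those numbered 2 (purple). All 7 intervals cross 0, and in all 7 genes the samples numbered 1 differ by more than those numbered 2. The number is not taken as pairing.

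The size of the difference depended on which samples were compared. Between the samples numbered 1 it ranged from -0.50 for *Ppargc1b* to 0.19 for *Gabpb1*, and between the samples numbered 2 from -0.11 for *Yy1* to 0.03 for *Gabpb1*. For all 7 genes the former was larger in size, as for 57.7% of well measured genes. The direction was shared for *Pprc1*, *Gabpb1*, *Esrra* and *Yy1*, and for the same genes when the numbers were crossed. The number is not taken as pairing, and the order of sizes depended on it. Crossed, *Nrf1* differed by -0.01 for high MMP 1 minus low MMP 2 and by 0.12 for high MMP 2 minus low MMP 1.

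To compare the genes with each other, normalized reads were divided by exon length, counted once over all annotated transcripts. *Pprc1* had the highest level, at 483 to 613 reads per kb over the 4 libraries, followed by *Yy1* at 411 to 468 and *Gabpa* at 382 to 426. *Yy1* and *Gabpa* did not differ beyond their spread, since *Gabpa* was the higher of them in high MMP 1 and the lower in the other 3 samples. *Esrra* came next at 165 to 177, then *Gabpb1* at 112 to 128, *Nrf1* at 93.9 to 103 and *Ppargc1b* at 18.8 to 29.4. Apart from *Yy1* and *Gabpa*, the ranges of neighbours in this order did not overlap.

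**Figure D3:**
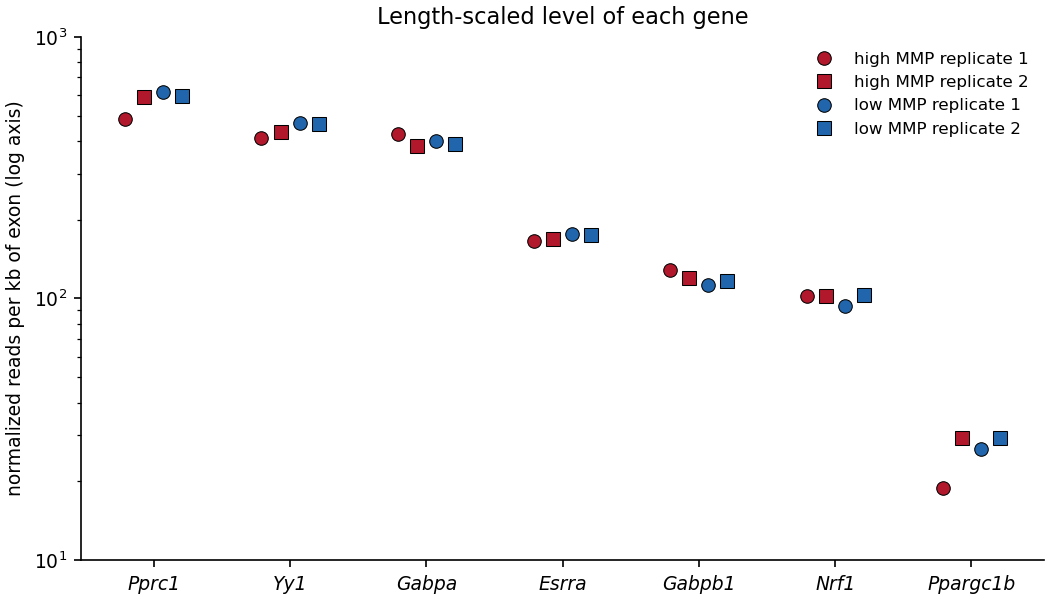
Normalized reads per kb of exon (y axis, log scale) of the 7 genes in order of their mean (x axis), with 1 point per library (red for high MMP, blue for low MMP, circles for replicate 1, squares for replicate 2). *Pprc1* lies between 483 and 613 in all 4 libraries and *Ppargc1b* between 18.8 and 29.4, and no change of order between these 2 coactivators occurs with MMP.

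Within the coactivator family, *Pprc1* was thus 21.9 times as abundant as *Ppargc1b* per kb of exon, with 20.0 to 25.7 in single libraries. Among all annotated genes of the table, the mean level per kb was at the 90.5th percentile for *Pprc1* and the 47.4th for *Ppargc1b*, while the 5 factors lay between the 63.4th (*Nrf1*) and the 87.5th (*Yy1*). Such levels depend on the transcripts the cells use, since an exon that is not used still adds to the length.

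The nearest known partners and regulators of these genes were then listed. Of 118 genes in 6 lists, 109 were measured and 104 were well measured. None had an adjusted p under 0.05 in limma, in edgeR with or without the replicate block, or in DESeq2. The unadjusted limma p was under 0.05 for 2 genes with higher and 4 with lower values in high MMP cells, together 5.50% of those measured. Of all genes, including those not well measured, 3.95% were higher and 6.01% lower by the same rule. All 6 are named in what follows. They were picked by this p, so a lack of overlap in them is not read as further evidence.

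Nuclear receptors that can recruit PGC-1 were represented by 9 of 15 genes. The related receptors *Esrrb*, *Ppara*, *Pparg*, *Rxrg*, *Thrb* and *Hnf4a* had no matching row and were not analysed here. *Esrrg* was covered by at most 3 reads in a library. Of 8 well measured ones, 2 were higher and 6 lower in high MMP cells, with a median difference of -0.10. The largest were 0.23 (SE 0.14, limma adjusted p 0.711) for *Ppard*, a receptor of fatty acid catabolism, and -0.21 (SE 0.25, limma adjusted p 0.867) for *Nr1h3*, the oxysterol receptor LXR-alpha. *Nr1h3* had 27.3 and 36.8 in high and 37.5 and 36.3 in low MMP cells, and its difference was -0.0025 without high MMP 1. *Ppard* had 1984 and 2383 in high and 2007 and 1724 in low MMP cells, so that only high MMP 2 stood above the low MMP samples, and its difference was 0.09 without that sample.

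Among 25 other factors and coregulators, 10 were higher and 15 lower, with a median of -0.04. *Sp1*, a general activator of GC-rich promoters that often acts beside NRF-1, had 3528 and 3259 normalized reads in high and 2773 and 2776 in low MMP cells. Its groups did not overlap, and its difference of 0.29 (SE 0.08) had an unadjusted p of 0.0234 and an adjusted p of 0.472 in limma. *Myc*, a growth factor-induced activator of mitochondrial and ribosomal genes, had the largest negative difference, -0.26 (SE 0.26, limma adjusted p 0.845). It had 5241 and 7404 in high and 8916 and 6247 in low MMP cells, with the opposite order in the samples numbered 1 and 2, and a difference of -0.01 without high MMP 1.

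Upstream regulators, which set PGC-1 activity through phosphorylation, deacetylation or degradation, comprised 19 well measured genes (8 higher, 11 lower, median -0.01). *Prkab1*, the beta-1 subunit of the energy sensor AMPK, had 916 and 855 in high and 1135 and 1120 in low MMP cells. The difference was -0.35 (SE 0.08, unadjusted p 0.0108, limma adjusted p 0.472). In contrast, the catalytic subunit *Prkaa1* was higher without overlap, by 0.08 (SE 0.08, limma adjusted p 0.833). The beta-2 subunit *Prkab2* was lower without overlap, by -0.27 (SE 0.14, limma adjusted p 0.668). For the gamma-1 subunit *Prkag1* the groups overlapped, with a difference of 0.16 (SE 0.14, limma adjusted p 0.811). *Clk2*, a kinase known to restrain PGC-1alpha, had 860 and 1071 in high and 1292 and 1252 in low MMP cells. It differed by -0.41 (SE 0.13, unadjusted p 0.0341, limma adjusted p 0.472), and by -0.25 without high MMP 1. *Gsk3b*, a kinase of insulin and growth signalling, had 1781 and 1859 in high and 1606 and 1418 in low MMP cells. It differed by 0.27 (SE 0.10, unadjusted p 0.0460, limma adjusted p 0.491). *Prkab1*, *Clk2* and *Gsk3b* had groups that did not overlap and none passed over all genes. Of the 19 regulators, 3 lay above and 8 below without overlap, beside 14.3% and 23.7% of all well measured genes. Whether this is more than that background was not tested.

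Next, genes known as targets of these factors were examined, starting with their promoters. RefSeq promoters on GRCm38.p6, from 250 bases before to 50 bases after the start site, were at hand for 7 of the 8 genes of the set and for 11682 genes of the table. The gene of the set without one was *Ppargc1b*, so its promoter was not searched, while that of *Ppargc1a* was. They were searched on both strands for GCGCANGCG (NRF-1), CCGGAAGT (GABP), AANATGGCG (YY1) and TCAAGGTCA (ERR). These letters were present in 6.25%, 3.89%, 2.38% and 0.423% of 32851 promoters. A match describes the sequence and not a bound site, and a promoter without one only lacks these letters in this window. In the set itself, promoters of *Gabpb1* and *Esrra* held the NRF-1 letters and that of *Gabpa* the YY1 letters. Of 46 target genes with a promoter, 9 held the NRF-1 letters, 8 the GABP letters, 1 the YY1 letters and 1 the ERR letters. These counts are per gene, with a match in any of its promoters, whereas the shares above are per promoter. Among well measured genes with a promoter, 1493 held the NRF-1 letters and 7861 did not. For GABP these numbers were 919 and 8435, for YY1 593 and 8761 and for ERR 33 and 9321. The sites below are those of the set and of target genes described next, each as 30 bases in the direction of transcription with the motif in capitals (either strand). For *Polrmt* 1 of 2 overlapping matches is shown.
Gabpb1, NRF-1 (chr2:126675788-126675817, minus): ccccgctgccGCGCAGGCGccgggcgagcc
Esrra, NRF-1 (chr19:6921930-6921959, minus): acaggaggccGCGCACGCGtgtgtatcgac
Polrmt, NRF-1 (chr10:79746561-79746590, minus): gcggcgcgtgCGCGTGCGCactgcgggcag
Cycs, NRF-1 (chr6:50566611-50566640, minus): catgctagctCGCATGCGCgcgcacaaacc
Sdhd, NRF-1 (chr9:50603909-50603938, minus): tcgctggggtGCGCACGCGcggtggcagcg
Tfam, GABP (chr10:71238073-71238102, minus): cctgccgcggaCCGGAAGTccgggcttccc
Tefm, GABP (chr11:80142144-80142173, minus): agcacacgaaaCCGGAAGTtgaggaggaac
Mterf1a, GABP (chr5:3893939-3893968, minus): ccaggccgaggCCGGAAGTcagccgttact
Gabpa, YY1 (chr16:84835046-84835075, plus): gctaagactcCGCCATCTTtcctacacttt
Sdhd, ERR (chr9:50603800-50603829, minus): tttccgggttgtagagTGACCTTGAgccct

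The genes that copy and express mitochondrial DNA are the link from these factors to the mitochondrial genome. All 11 listed were measured, 3 higher and 8 lower in high MMP cells, with a median of -0.01. *Tfam*, which packages mitochondrial DNA and starts its transcription, had 1743 and 1740 in high and 1788 and 1724 in low MMP cells, so the groups overlapped and the difference was -0.01 (SE 0.07, limma adjusted p 0.994). *Polrmt*, the mitochondrial RNA polymerase, had 608 and 803 in high and 785 and 785 in low MMP cells, and only high MMP 1 departed from the rest. *Polg2*, the accessory subunit of the mitochondrial DNA polymerase, had 105 and 107 in high and 147 and 134 in low MMP cells. Its groups did not overlap, with a difference of -0.40 (SE 0.13, unadjusted p 0.0390, limma adjusted p 0.472). The largest positive difference was 0.24 (SE 0.10, limma adjusted p 0.536) for the elongation factor *Tefm*, and the largest negative was -0.58 (SE 0.26, limma adjusted p 0.580) for *Mterf1a*, a termination factor with 56.8 and 38.5 in high and 72.4 and 69.1 in low MMP cells. The difference of *Mterf1a* was -0.31 without high MMP 2.

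The 22 respiratory chain targets had a median difference of 0.01, with 13 higher and 9 lower. Between the samples numbered 1, 15 of 22 were higher in high MMP cells (median 0.18), whereas between those numbered 2 none was (median -0.17). The number is not taken as pairing, and the contrast was smaller with the numbers crossed. The median was then 0.07 for high MMP 1 minus low MMP 2 and -0.05 for high MMP 2 minus low MMP 1. Cytochrome c, *Cycs*, whose promoter held the NRF-1 letters, had the largest positive difference at 0.20 (SE 0.16, limma adjusted p 0.779), from 2494 and 1966 in high and 1789 and 2072 in low MMP cells, and a difference of 0.03 without high MMP 1. *Sdhd*, a complex II subunit whose promoter held both NRF-1 and ERR letters, had 3041 and 2381 in high and 2356 and 2793 in low MMP cells. In both genes high MMP 1 was the highest sample, and high MMP 2 lay within the range of the low MMP samples. *Cox17*, a copper chaperone for cytochrome c oxidase, had 34.9 and 27.6 in high and 46.2 and 69.1 in low MMP cells. It differed by -0.84 (SE 0.30, unadjusted p 0.0435, limma adjusted p 0.478). It rests on 46 and 33 reads in the high and 53 and 78 in the low MMP libraries.

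Among the other metabolic and import targets, 19 were well measured, 9 higher and 10 lower, with a median of -0.0028. The extremes were 0.15 (SE 0.08, limma adjusted p 0.652) for *Mfn2*, which fuses outer membranes and is a known PGC-1 target, and -0.18 (SE 0.14, limma adjusted p 0.788) for *Cpt1a*, the entry step of fatty acids into mitochondria. *Cpt1a* had 446 and 359 in high and 473 and 433 in low MMP cells, so the groups overlapped, and its difference was -0.33 without high MMP 1 and -0.02 without high MMP 2. *Mfn2* had 1328 and 1287 in high and 1203 and 1157 in low MMP cells, without overlap.

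**Figure D4:**
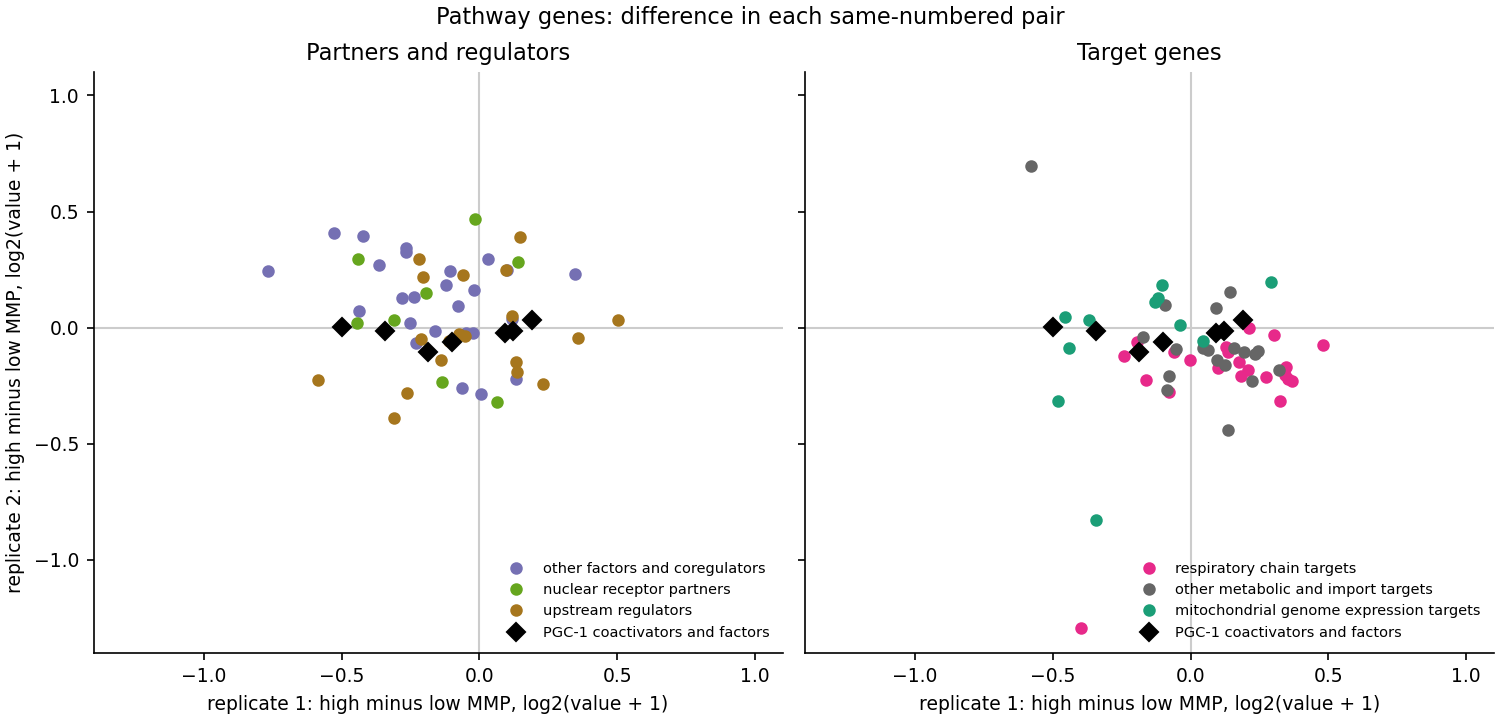
Difference between high and low MMP cells on the log2(value + 1) scale in the samples numbered 1 (x axis) and numbered 2 (y axis) for partners and regulators (left) and target genes (right) that averaged 10 normalized reads or more, 1 point per gene, with the PGC-1 coactivators and factors as black diamonds in both panels. The respiratory chain targets (pink) all lie below 0 on the y axis, and 15 of 22 lie to the right of 0. The number is not taken as pairing.

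Genes of the whole table with these letters in a promoter gave no wider separation of the groups. Of those well measured, the median difference was -0.03 for 1493 genes with the NRF-1 letters, -0.03 for 919 with the GABP letters, -0.04 for 593 with the YY1 letters and -0.05 for 33 with the ERR letters. Genes without each motif had medians of -0.03 in all 4 cases. An unadjusted limma p under 0.05 was found for 5.76%, 6.09%, 5.23% and 3.03% of the genes with the letters. Without them the shares were 8.04%, 7.85%, 7.84% and 7.69%. The share for the ERR letters is 1 of 33 genes.

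Over the 4 libraries, the gene of the 6 lists whose log2 profile was nearest to that of a coactivator or factor was found by root-mean-square distance among 104 genes. *Esrra* was nearest to *Stk11*, the kinase upstream of AMPK (distance 0.01), *Yy1* to the deacetylase *Sirt1* (0.02), *Gabpa* to *Mybbp1a* (0.02), *Gabpb1* to *Cox5a* (0.03), *Nrf1* to *Acadvl* (0.05) and *Ppargc1b* to *Nr1h3* (0.10). The root-mean-square spread of the genes about their own means ranged from 0.0413 for *Esrra* to 0.261 for *Ppargc1b*, so distances are not comparable between genes. For *Nrf1* the spread was 0.0536 and the distance 0.0468, so its nearest profile was hardly nearer than a flat one. With 4 points these distances are a description only.

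Some properties of the libraries were set beside these values. Depth was 22591970 to 26395015 reads. All 7 markers of mammary carcinoma cells were present, with summed levels of 55865 and 63692 in low and 66603 and 48646 in high MMP cells. Among them the groups did not overlap for *Cdh1*, lower by -0.34 (limma adjusted p 0.498), and *Krt14*, higher by 0.32 (limma adjusted p 0.472). The other markers of this list overlapped. Leukocyte markers were represented by 3 of 7 genes and summed to 72.0 to 156. Most of it was *Cd68*, at 59.9 and 139 in high and 149 and 91.2 in low MMP cells. *Csf1r* had 8 to 15 reads and *Ptprc* 0 to 2 reads. Fibroblast markers (3 of 6) summed to 334 and 374 in high and 548 and 604 in low MMP cells, almost all of it *Pdgfra*, with *Dcn* at 1.74 to 9.09, and endothelial markers (2 of 5) to at most 6.20. Of 52 G2/M-phase genes, 48 were higher in high MMP cells (median 0.31), and of 42 S-phase genes, 41 were lower (median -0.36), and the part of cell cycle phase in the values above was not tested. In these sorted populations, a change in the mix of cells and a change within cells cannot be told apart.

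The high MMP samples also differed with gene length. Across 12877 genes, which are not independent, the difference of high MMP 1 minus high MMP 2 had a Spearman correlation of -0.31 with exon length, and the median over 5 equal bins of length fell from 0.16 in the shortest genes to -0.17 in the longest. Between the low MMP samples the correlation was 0.22, and for the difference between the groups it was -0.0008. Of the respiratory chain targets, with a median exon length of 1670 bases, 19 of 22 were higher in high MMP 1 than in high MMP 2. Among the 7 genes, *Ppargc1b* (3990 bases) at -0.64 and *Pprc1* (6284 bases) at -0.28 lay below the lower quartile of their bins, -0.21 and -0.26. In contrast, *Gabpa* (5687 bases) at 0.16 and *Gabpb1* (7752 bases) at 0.10 lay above the upper quartile of theirs, 0.11 and 0.01. *Esrra*, *Yy1* and *Nrf1*, the longest of the set with 10282 bases, lay between the quartiles, *Nrf1* at 0.0035. The part of length in these differences was not tested.

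**Figure D5:**
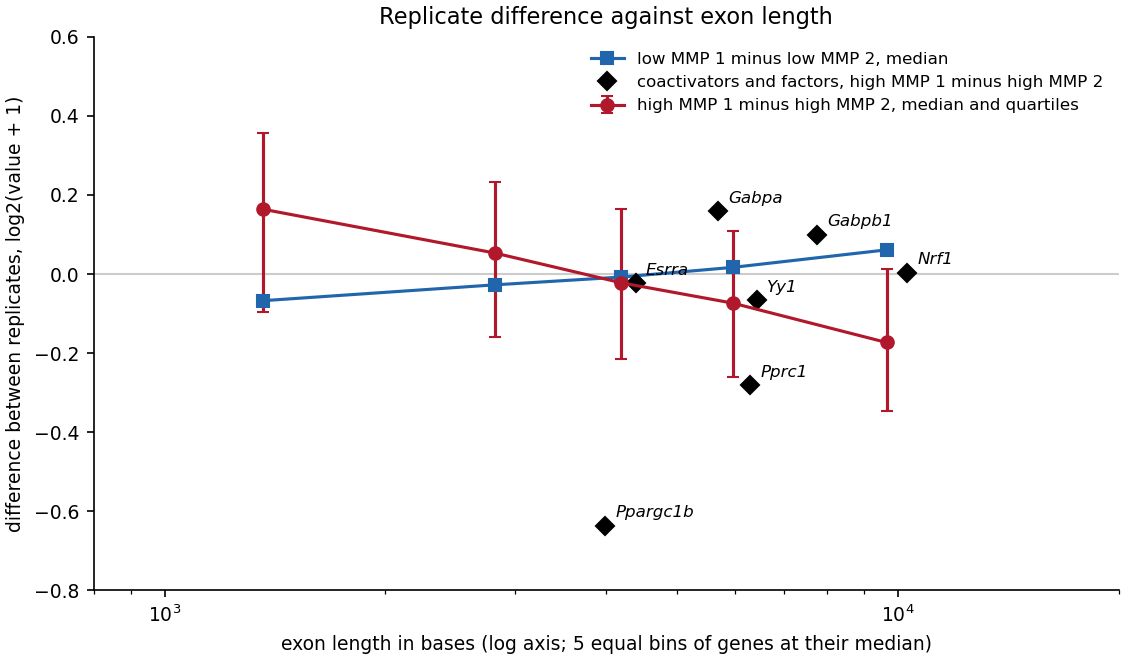
Difference between replicates on the log2(value + 1) scale (y axis) against exon length (x axis, log scale) for 5 equal bins of well measured genes, as median and quartiles of high MMP 1 minus high MMP 2 (red) and median of low MMP 1 minus low MMP 2 (blue), with the 7 genes as diamonds. The red line is placed at the median length of each bin and falls from 0.16 to -0.17, and *Ppargc1b* lies at -0.64, below it, while *Gabpa* at 0.16 and *Gabpb1* at 0.10 lie above it.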

How the data were processed

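The authors aligned stranded mRNA reads of 75 bases (paired-end by the label) to the mouse transcriptome of GRCm38 (mm10) and quantified genes with STAR. The submitters' processing notes also name HTSeq. Versions and annotation release are not given in the sources used here. The deposited table holds a normalized signal per gene, made by the authors from counts divided by library size, and every library was scaled to a total of 20000000. The filter on detection was checked: every gene was above 0 in at least 2 libraries. Values were whole multiples of 1 step per library, and 100.0% gave whole reads within 0.05 read.

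Identifiers were matched to GENCODE M21 (19993 of 20197). The test was limma 3.58.1 (trend) in R 4.3.3 on log2(value + 1), with group as the only factor and Benjamini-Hochberg adjustment over all genes. A fold change on this scale understates that of low genes. edgeR 4.0.16 and DESeq2 1.42.0 were run on recovered reads as alternatives, beside other pseudocounts, filters, scalings, a replicate block and leaving out each library. The scripts were tested on simulated data. Samples were grouped by title. The members and lists were chosen with earlier results of these data known. Besides the members, the genes named are, per list, the largest difference in each direction at a mean of at least 10, those with an unadjusted p under 0.05 and the nearest profiles. *Gabpb2*, *Esrrg*, *Prkaa1*, *Prkab2*, *Prkag1*, *Tfam*, *Polrmt*, *Sdhd*, *Cdh1*, *Krt14* and the printed promoter sites were added after their values were seen. The motif letters were also chosen with the values known, and the NRF-1 motif was shortened by its last letter after a first search. The nearest profile to *Pprc1* is not reported here.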

Additional observations from a re-analysis of the deposited data

How the results depend on the processing

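The 7 differences were recomputed under 17 alternatives each. None passed an adjusted p of 0.05 in any (smallest 0.265), and 116 of 119 kept their direction. The other 3 arose on leaving out 1 library. The range over these 4 settings was -0.57 to 0.07 for *Ppargc1b* (0.0710 without high MMP replicate 1), -0.32 to -0.04 for *Pprc1*, -0.01 to 0.12 for *Nrf1* (-0.0121 without low MMP replicate 1), -0.04 to 0.11 for *Gabpa* (-0.0442 without high MMP replicate 1), 0.06 to 0.16 for *Gabpb1*, -0.09 to -0.07 for *Esrra* and -0.18 to -0.11 for *Yy1*. In these fits the lone sample is assumed to vary like the other group. The cause of these reversals was not tested. With 2 samples in each group, an unadjusted p was under 0.05 for 1 of the 7 genes, *Yy1* in limma after quantile normalization (0.0446). In that setting 2184 of the 20197 genes were under 0.05. The other values under 0.05 arose without high MMP replicate 2. That fit leaves 1 high MMP sample, so its p-values are not read. Over all genes, limma called 0 genes in every setting, while DESeq2 called 118 and edgeR with the replicate block 106. Same-numbered samples deviated in opposite directions from their group means (r = -0.421 over 12902 genes), so the number was not taken as pairing. With the replicate block, limma called 0 genes (1055 at an unadjusted p under 0.05) and 0 of the 7. With crossed numbers as the block, chosen after seeing the data, edgeR called 733 genes, 0 of the 7, 1 upstream regulator (*Clk2*) and 1 respiratory chain target (*Cox17*). *Ppargc1b* rests on 99 to 140 reads per library and the others on at least 869, and every interval rests on 2 samples per group.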
